A study of Mus with 12 samples.

Results

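Marker genes of Kupffer cells and other macrophages, 10 in all, were followed through the m6A peak lists of 6 mouse livers. They are Adgre1, Clec4f, Csf1r, Marco, Mpeg1, Vsig4, Cd5l, Cd163, Timd4 and Itgam, and every listed peak that carries one of these gene names was taken. The series holds 7906 genes with a peak in at least 1 liver, and 9 of the 10 marker genes are among them. These 9 genes carried 77 of 68562 peaks, in 19 of 18374 merged regions. A region is a stretch where peaks of the 6 lists overlapped by at least 1 base.

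In MeRIP-seq, fragments of mRNA that bear m6A are pulled down with an antibody, and a peak marks where the pulled-down fragments exceed the input. The livers came from male C57BL/6J mice, 6 weeks old at the start and fed for 12 weeks. The 3 HFD mice received a diet with 60% of the energy from fat and the 3 control mice, called WT, a diet with 10%, and no genotype separates the groups. Replicates were numbered by the sample titles as HFD 1 to HFD 3 and WT 1 to WT 3, and the titles also set the groups, because the diet label reads HFD for all 12 samples. The 6 input libraries were not analysed here.

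Kupffer cells are the resident macrophages of the liver, attached to the walls of the sinusoids. They take up bacteria, complement-coated particles, dying cells and hemoglobin from the blood, and they depend on signals through the CSF1 receptor. In mice, Clec4f, Timd4 and Vsig4 are used as markers of resident Kupffer cells, whereas Itgam is high on monocytes and on macrophages derived from them. m6A is set on adenosines of mRNA, often near stop codons, and affects the decay and translation of the transcript. A marker transcript in whole liver RNA can change through the number of cells or through the RNA per cell, and these cannot be told apart.

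The lists held 10109 to 12966 peaks in 5296 to 6430 genes per liver. Each peak has a fold enrichment, which is the ratio of immunoprecipitate to input given by the authors' peak caller, and a p score, the negative log10 of the caller's p-value times 10. All listed peaks had a fold enrichment of at least 2 and a p score of at least 50. The caller's false discovery rate, taken to be a percent, was high. Its list median was 79.5 in HFD 1, 64.6 in WT 3 and 100 in HFD 2, HFD 3, WT 1 and WT 2. Among the marker peaks its lowest value was 46.7, so by this measure none was called with confidence. The number of reads behind these values is unknown, so the absence of a peak does not tell an unmethylated transcript from one with too few reads. WT 2 and WT 3 stood apart by peaks of skeletal muscle genes. WT 2 had peaks in 15 and WT 3 in 16 of 20 muscle markers, and the other 4 livers in 1 each.

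The mean number of macrophage marker genes with an m6A peak did not differ between HFD and WT livers. Between 5 and 8 of the 10 genes had a peak in a liver, with 5, 7 and 8 genes in HFD 1, HFD 2 and HFD 3 and 7, 6 and 7 genes in WT 1, WT 2 and WT 3. The mean was 6.67 ± 1.53 genes (SD, n = 3) in HFD mice and 6.67 ± 0.577 genes (SD, n = 3) in WT mice. HFD 1 had the fewest marker genes although its list was the second longest. The peaks of these genes numbered 13, 13 and 12 in HFD mice and 15, 12 and 12 in WT mice, so the groups overlapped. Without WT 2 and WT 3, the HFD mean of 12.7 peaks stood against 15 peaks in WT 1 alone, a difference of -2.33 peaks. The part of muscle RNA in these counts was not tested.

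Cd163, Vsig4, Clec4f and Mpeg1 carried peaks in all 6 livers. Cd5l and Timd4 had peaks in 5 livers, Itgam in 4, and Marco and Csf1r in 1 each. Adgre1, which encodes the macrophage antigen F4/80 (chromosome 17 from 57358581 to 57483529), had no listed peak in any liver, neither under this symbol nor under its gene ID. Among genes with a peak, 44.4% of the markers (4 of 9) and 49.2% of all genes (3892 of 7906) had one in every liver. A peak in all 3 HFD livers and no WT liver was found for 0 markers and 0.721% of all genes, and the reverse for 0 markers and 0.19% of all genes.

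**Figure D1:**
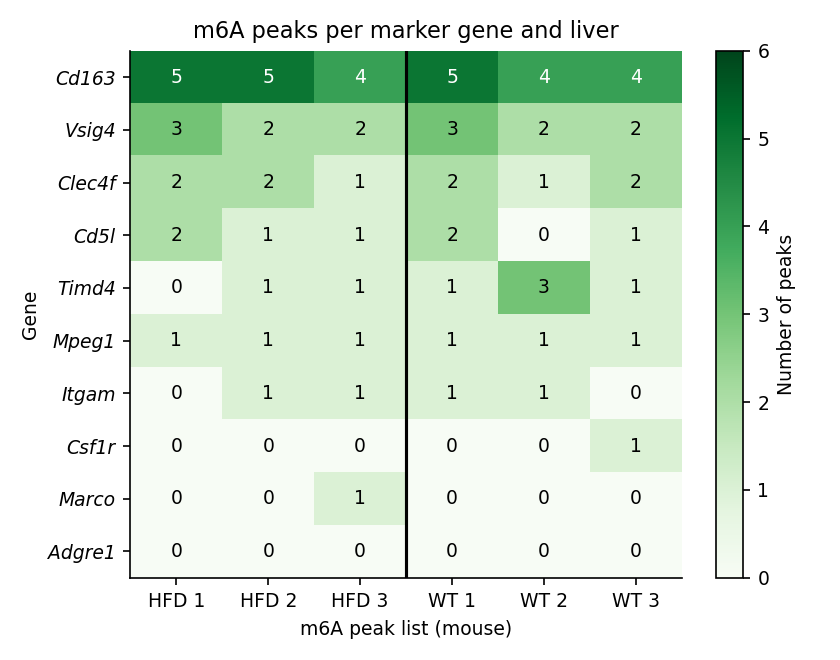
Number of m6A peaks of each marker gene (rows) in the peak list of each liver (columns, HFD left and WT right of the black line), with darker green for more peaks. Cd163 has 4 or 5 peaks in every liver, Mpeg1 has 1 in every liver and Adgre1 has none.

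The number of peaks per gene did not separate the diets for any marker. Cd163 had 5, 5 and 4 peaks in HFD mice and 5, 4 and 4 in WT mice, and Vsig4 had 3, 2 and 2 peaks in both groups. Timd4 had the widest gap, with 0, 1 and 1 peaks in HFD mice and 1, 3 and 1 in WT mice, a difference of -1 peak (two-sided exact permutation test, p = 0.6, adjusted p = 1 over all 7906 genes). The gap was -0.333 peaks without WT 2, a liver with muscle peaks. The other 8 genes with a peak gave p = 1 by the same exact test. Groups without overlap were found for 0 of the 9 markers, where 1.45% of all genes were higher and 0.519% lower in HFD mice without overlap. With 3 mice against 3 the smallest p is 0.1, so 0 genes of the series could pass at 0.05, before or after adjustment.

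Cd163, Cd5l and Marco encode scavenger receptor cysteine-rich proteins. CD163 takes up hemoglobin bound to haptoglobin, CD5L is secreted by macrophages, and MARCO binds bacteria. Cd163 (chromosome 6 from 124304636 to 124330529 in GRCm38) had the most peaks of all markers, 27 in 5 regions, and 4 of the 5 were found in all 6 livers. The first 3 regions were short and lay in the lower-coordinate part of the gene. The first covered 321 bases from 124307001 to 124307321, at a fold enrichment of 5.13, 5.83 and 4.79 in HFD 1, HFD 2 and HFD 3 and of 7.26, 6.79 and 6.11 in WT 1, WT 2 and WT 3. Every WT value lay above every HFD value there as listed, but the groups overlapped once each liver was centred on its own median.

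The second Cd163 region covered 324 bases from 124308944 to 124309267, at a fold enrichment of 7.01, 5.26 and 6.00 in HFD mice and 5.99, 6.39 and 8.19 in WT mice. The third covered 321 bases from 124311387 to 124311707, at 7.32, 5.57 and 4.05 in HFD mice and 4.55, 5.83 and 5.29 in WT mice. Both groups overlapped in these regions. In each of the 3 short regions the peak bounds were the same to the base in all 6 lists, which was also the case for 63.4% of all regions with a peak in every liver.

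The strongest methylation signal of Cd163 lay at its other end, in a region of 945 bases from 124329583 to 124330527 that stops 2 bases before the upper annotated bound of the gene. Fold enrichment there was 17.8, 19.2 and 16.4 in HFD 1, HFD 2 and HFD 3 and 17.1, 12.9 and 16.1 in WT 1, WT 2 and WT 3. These values lay between the percentiles 78.9 and 90.0 of their own lists, against 7.36 to 52.6 for the 3 short regions. The 3 WT livers and HFD 3 had 1 peak over the whole stretch, HFD 2 had a pair of peaks within it, and HFD 1 had only a peak of 379 bases in its upper part. A region of 90 bases from 124327898 to 124327987 had a peak in HFD 1 (11.6) and WT 1 (13.2) only.

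Cd5l (chromosome 3 from 87357881 to 87371074) carried a region of 321 bases from 87365790 to 87366110. Fold enrichment was 4.79, 5.40 and 5.14 in the HFD livers and 6.00 and 5.66 in WT 1 and WT 3, while WT 2 had no peak of this gene. Both WT values lay above the HFD values, but the remaining WT mouse gave none, so this region was not fitted. Another region of 339 bases, from 87367541 to 87367879, was listed in HFD 1 (4.65) and WT 1 (5.29). Marco (chromosome 1 from 120474538 to 120505024) had a single peak of 99 bases in HFD 3, from 120484774 to 120484872, at a fold enrichment of 7.32.

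Clec4f encodes a C-type lectin of mouse Kupffer cells. In this gene (chromosome 6 from 83644542 to 83656116) a region of 942 bases from 83652359 to 83653300 had a peak in 5 livers with the same bounds. Fold enrichment was 10.7 and 9.59 in HFD 1 and HFD 2, with no peak in HFD 3, and 10.7, 7.91 and 11.8 in WT 1, WT 2 and WT 3. The diets overlapped, and HFD 1 and WT 1 were nearly equal. The p score of this region ranged more widely, with 3100 and 2663 in HFD 1 and HFD 2 against 1615, 498 and 314 in WT 1, WT 2 and WT 3. A p score of 3100 is shared by 1056 peaks (8.19%) of the HFD 1 list, so it gives no rank among the strongest peaks. By fold enrichment the same peak of HFD 1 stood at the percentile 66.9. The p score grows with read number as well as with enrichment, and read number per library was not analysed here.

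The other Clec4f region, 231 bases from 83655957 to 83656187, reached 71 bases past the upper annotated bound of the gene. Fold enrichment was lower, at 5.64, 3.54 and 4.77 in the HFD livers and 7.24 and 3.43 in WT 1 and WT 3, and WT 2 had no peak there. HFD 3 thus kept only the weaker Clec4f region and WT 2 only the stronger one.

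Timd4 encodes TIM-4, a receptor for phosphatidylserine on dying cells. Its 7 peaks fell into 3 regions (gene on chromosome 11 from 46810786 to 46844333), and none of them was found in more than 3 livers. The region from 46817549 to 46817782 had a peak in HFD 2 (4.83), WT 1 (6.08) and WT 2 (6.72). The region from 46843655 to 46844222 had a peak in HFD 3 (4.99), WT 2 (9.07) and WT 3 (5.42), and that from 46815431 to 46815772 in WT 2 (4.77). HFD 1 had no Timd4 peak and WT 2 was the only liver with 3.

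Vsig4 encodes CRIg, a complement receptor by which Kupffer cells catch opsonized bacteria. Its gene (chromosome X from 96247201 to 96293438) had 3 regions, numbered here along the chromosome. The second and strongest, 357 bases from 96290490 to 96290846, had a peak with the same bounds in all 6 livers. Fold enrichment was 12.7, 14.7 and 11.3 in HFD 1, HFD 2 and HFD 3 and 19.1, 13.1 and 12.6 in WT 1, WT 2 and WT 3. WT 1 stood above the other 5 livers, which lay within 11.3 and 14.7.

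The third Vsig4 region, 125 bases from 96293314 to 96293438, stopped at the annotated bound of the gene. Fold enrichment was 6.87, 7.35 and 7.96 in the HFD livers and 7.87 and 8.85 in WT 1 and WT 2, with no peak in WT 3. The first, 57 bases from 96269556 to 96269612, was listed in HFD 1 (6.36), WT 1 (9.01) and WT 3 (3.14). The value of WT 3 was the lowest fold enrichment of all 77 marker peaks.

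Itgam encodes the integrin chain CD11b of monocytes, neutrophils and macrophages. It had 1 region of 658 bases (chromosome 7 from 128117306 to 128117963) that lay 528 bases before the upper annotated bound of the gene. Fold enrichment was 5.38 and 8.66 in HFD 2 and HFD 3 and 5.39 and 5.21 in WT 1 and WT 2, whereas HFD 1 and WT 3 had no peak. HFD 1 and WT 3 were the livers with the longest lists. Itgam is also a gene of neutrophils, and of 12 neutrophil markers only S100a8, named here after its values were seen, had a peak, in HFD 2 (5.38) and HFD 3 (3.83). A peak in at least 2 HFD livers and no WT liver was found for 3.96% of all regions, and the share of all genes is not given here. The part of neutrophils in the Itgam peaks was not tested.

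Csf1r, which encodes the receptor for CSF1 and IL-34, had a single peak, in WT 3 at a fold enrichment of 8.52. This peak of 1846 bases (chromosome 18 from 61130304 to 61132149) covered the uppermost 836 bases of the gene and ran 1010 bases past it, into the neighbouring gene Hmgxb3, whose lower bound lies at 61131277. HFD 1, HFD 2, WT 1 and WT 2 had peaks at the same place that the lists name for Hmgxb3, at 4.74, 4.05, 4.70 and 7.29, and all 4 began past the upper bound of Csf1r. The lists give no strand, so the Csf1r peak cannot be told apart from signal of Hmgxb3. Without it, the number of marker genes was 7, 6 and 6 in the WT livers.

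Mpeg1 encodes perforin-2, a pore-forming protein of macrophages that acts on ingested bacteria. Its peak covered nearly the whole gene, with 4253 bases (chromosome 19 from 12461033 to 12465285) or 94.2% of the annotated length of 4516 bases. Peaks of 4000 bases or more made up 0.592% of all peaks. In WT 3 the peak was 65 bases shorter, and the other 5 livers had the same bounds. Fold enrichment was 6.93, 6.82 and 6.48 in HFD 1, HFD 2 and HFD 3 and 7.19, 6.51 and 9.38 in WT 1, WT 2 and WT 3. The 5 livers other than WT 3 lay between 6.48 and 7.19.

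**Figure D2:**
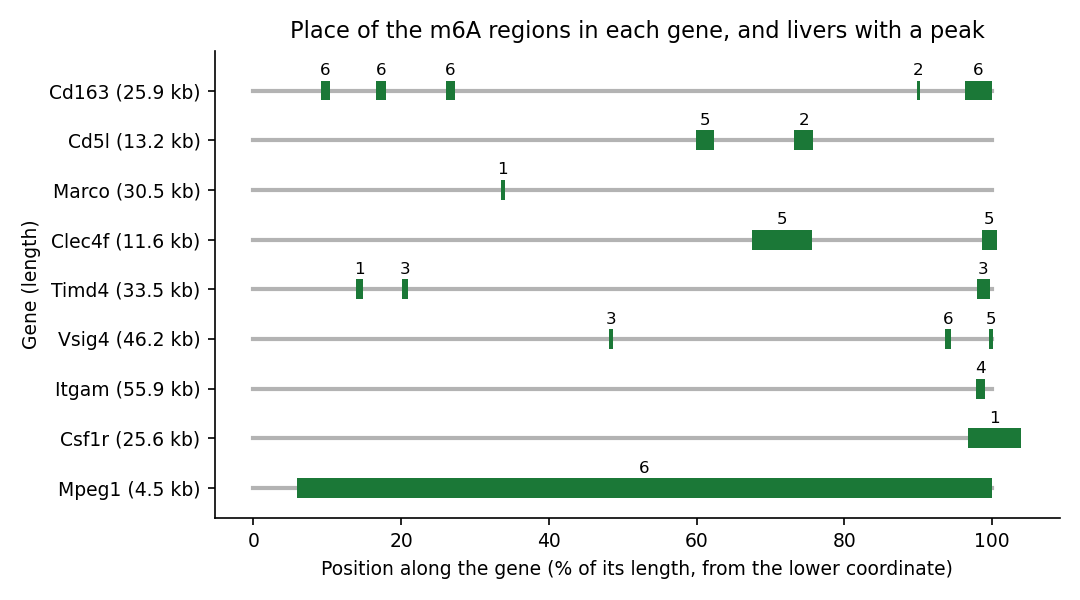
Place of the regions (green bars) along each marker gene (gray line), as a percent of the annotated gene length counted from its lower coordinate, without regard to strand. Numbers give the livers with a peak named for the gene, and bars under 0.5% of the gene are drawn at that width. Regions of Cd163, Clec4f, Timd4, Vsig4, Itgam and Csf1r lie at or near the higher-coordinate end, and that of Mpeg1 nearly fills the gene.

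Across the markers, regions near the higher-coordinate end of the gene were common but not always the strongest. The middle of a region lay in the last part of the gene in Cd163, Clec4f, Timd4, Vsig4 and Itgam, at 90.0% to 99.9% of the annotated length. In Cd163 the region at 98.2% was the strongest of the gene, whereas in Clec4f the region at 71.6% exceeded that at 99.6%, and in Vsig4 the region at 94.0% exceeded that at 99.9%. The strand of the genes and their exons were not analysed here, so these places give no transcript segment.

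The marker peaks had a lower median fold enrichment than all peaks, which is given as a description with no test. The median fold enrichment was 6.82 over the 77 peaks and 7.64 over all 68562 peaks. Of the marker peaks, 47 (61.0%) lay in the lower part of their own list, under its median, against 49.8% of all peaks. The 77 peaks are not independent, because the same regions recur in up to 6 livers and Cd163 alone gave 27 of them. A fold enrichment over 10 was reached by 18 peaks (23.4%) of Cd163, Vsig4 and Clec4f, against 33.4% of all peaks. The median length was 324 bases for the markers and 284 bases for all peaks.

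**Figure D3:**
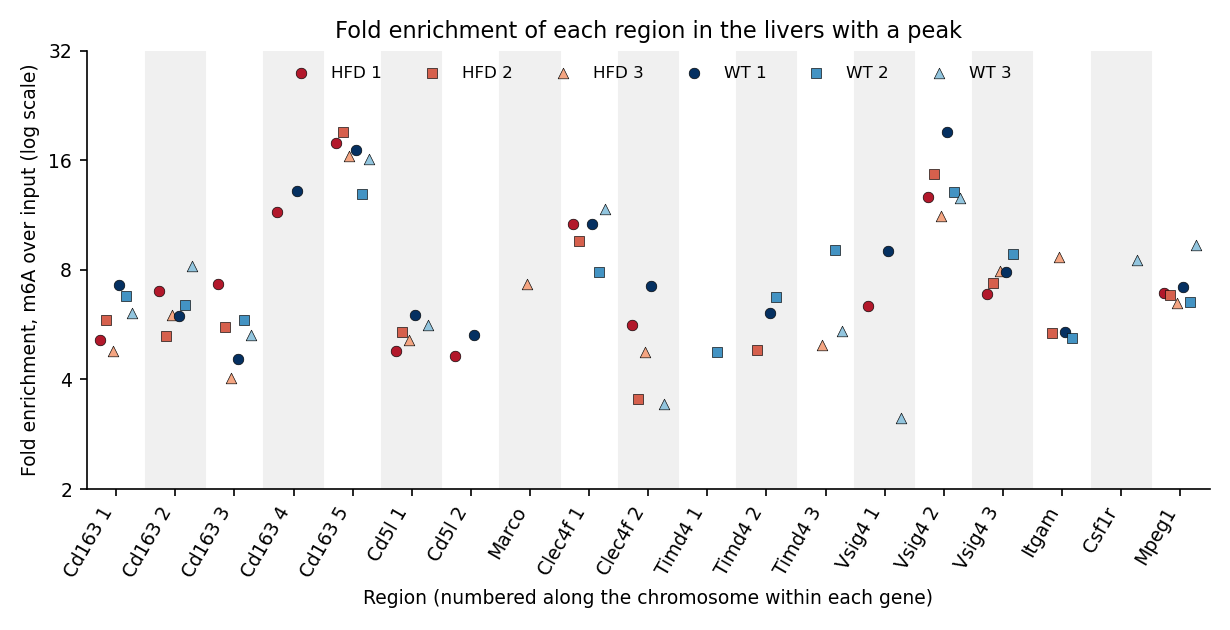
Fold enrichment of each marker region (log scale) in the livers with a peak, red symbols for HFD and blue for WT, numbered along the chromosome within each gene. The region at the end of Cd163 (Cd163 5) and the second of Vsig4 stand highest, and symbols of both diets mix in most regions.

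No marker region was found in every liver of 1 diet and in none of the other. Of the 19 regions, 0 had a peak in all 3 HFD livers and in no WT liver, where 0.718% of all regions did. The reverse pattern was likewise found for 0 of the 19 and for 0.294% of all regions. With peaks in at least 2 livers of a group required, the count was 0 of 19 in both directions, where 3.96% of all regions were found in HFD livers alone and 2.74% in WT livers alone. With shares this low, counts of 0 among 19 regions do not set the markers apart. Regions with a peak in 5 livers lacked it in livers of either diet. WT 2 lacked the first Cd5l region and the second of Clec4f, HFD 3 lacked the first of Clec4f, WT 3 lacked the third of Vsig4, and HFD 3 lacked the merged region of Csf1r and Hmgxb3.

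Fold enrichment could be compared by a fit over all 6245 regions with a peak in all 6 livers, of which 6 belong to markers. Values were taken as log2 and each liver was centred on its own median. Among these 6, the first Cd163 region had the largest difference, -0.40 ± 0.25 (log2 HFD minus WT, SE), with a 95% interval from -0.94 to 0.14. After centring, both groups overlapped in this region as well. Centring removes the library medians, which were 11.9 in HFD 1 and 11.4 in WT 3 against 9.32 in HFD 3 and 9.49 in WT 2.

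The second Vsig4 region differed by -0.24 (interval -0.82 to 0.34), Mpeg1 by -0.22 (-0.72 to 0.29) and the second Cd163 region by -0.21 (-0.72 to 0.30). The third Cd163 region differed by 0.04 (-0.51 to 0.58) and the region at the end of Cd163 by 0.17 (-0.34 to 0.69). Every interval included 0, and their median half-width was 0.53 on the log2 scale. These intervals are not adjusted for the number of regions, so the adjusted threshold asks for larger differences than this. The lowest adjusted p of any region fitted was 0.357 (limma, n = 3 per group). The median of the 6 differences was -0.21, against -0.02 over all regions fitted. Adjusted p was 0.999 for all 6 (limma, n = 3 per group).

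Of the 6 marker regions, 0 passed the adjusted threshold and 0 had an unadjusted p under 0.05 by limma. Over all 6245 regions, 0% passed the adjusted threshold in either direction. Unadjusted p under 0.05 was found for 169 regions (2.71%) lower and 135 regions (2.16%) higher in HFD mice. Centred values did not overlap between the groups in 0 of the 6 marker regions, against 5.09% of all regions lower and 4.48% higher in HFD mice. Without WT 2 and WT 3, the first Cd163 region differed by -0.58, the second Vsig4 region by -0.69 and the end of Cd163 by -0.056, and 0 of the 6 passed the adjusted threshold. The second Vsig4 value rested on WT 1, without which it was -0.019. The part of muscle RNA in these values was not tested.

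**Figure D4:**
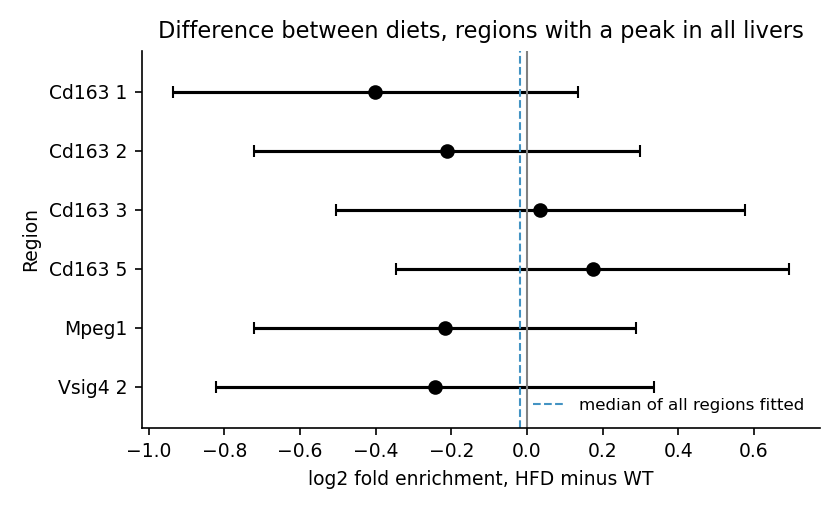
Difference in log2 fold enrichment, HFD minus WT, for the 6 marker regions with a peak in all livers (points, with 95% intervals from limma, 3 mice per group). All intervals cross 0 (gray line), and the dashed line at -0.02 is the median of all 6245 regions fitted.

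The pathway around these markers carried m6A peaks in further genes, taken from 5 lists of 79 genes in all. These lists were set with earlier results of these data known, so they are given as counts with no test. A peak was found in 31, 31 and 27 of the genes in HFD 1, HFD 2 and HFD 3 and in 27, 27 and 26 genes in WT 1, WT 2 and WT 3, and 40 genes had a peak in at least 1 liver. The mean was 29.7 ± 2.31 genes (SD, n = 3) in HFD mice and 26.7 ± 0.577 genes (SD, n = 3) in WT mice, and the groups met at 27. When peaks below their list's median fold enrichment were dropped, the difference of 3 genes became -0.333.

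Among 5 ligands and signaling partners of the CSF1 receptor, 3 had a peak. Csf1, the ligand, had 1, 2 and 3 peaks in the HFD livers and 2 in each WT liver, at a highest fold enrichment of 14.8, 11.4 and 6.47 against 7.68, 11.1 and 15.4. Inpp5d, which encodes the phosphatase SHIP1, had a peak in every liver, and Grb2, an adaptor of receptor kinases, in all but WT 1. Unlike the receptor gene, the ligand gene carried a peak in every liver.

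Zeb2 and Maf stood out among the transcription factors of macrophage identity by their fold enrichment. Of 13 genes, 8 had a peak and 5 had one in every liver. Zeb2, which maintains the identity of tissue macrophages in mice, reached a highest fold enrichment of 63.8, 85.5 and 70.8 in HFD mice and 92.8, 110 and 134 in WT mice, and these uncentred values did not overlap. The share of all genes whose uncentred highest values separate in this way is not given here. For centred values of single regions, a different measure, 5.09% of all fitted regions were lower in HFD mice without overlap. Of the 8 regions of this list in the fit, 0 passed the adjusted threshold by limma and 2 had an unadjusted p under 0.05. Over all fitted regions, an unadjusted p under 0.05 by limma was found for 2.71% lower and 2.16% higher in HFD mice. Maf, which encodes a transcription factor of macrophages, had a highest fold enrichment between 33.76 and 49.97. Irf8, a factor of monocytes and macrophages, lay between 6.33 and 12.2.

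Zeb2 was the only gene of these 5 lists with a region in all 3 livers of 1 group and in none of the other, where 0.718% of all regions were found in all HFD livers alone. The regions of these lists were not counted, so 1 such region is not read as a trait of the lists. This region of 72 bases (chromosome 2 from 45017397 to 45017468) had a fold enrichment of 6.84, 5.58 and 9.32 in HFD 1, HFD 2 and HFD 3. Zeb2 had 7, 6 and 6 peaks in HFD mice and 5 in each WT mouse, and 1.45% of all genes had more peaks in HFD mice without overlap. Zeb2 is also expressed outside macrophages, in hepatic stellate and endothelial cells. Of 14 endothelial markers, 12, 9 and 9 had a peak in the HFD livers and 9, 10 and 9 in the WT livers, and the part of these cells was not tested.

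Of 16 other genes of Kupffer cells, 6 had a peak, in 6, 5 and 5 genes in the HFD livers and 5, 3 and 3 in the WT livers. Siglec1, which encodes the adhesion receptor sialoadhesin, had a peak in all 6 livers at 6.28 to 14.9. Slc11a1, a metal transporter of phagosomes, lacked a peak in WT 3, and Hpgd, which degrades prostaglandins, lacked 1 in WT 2. Kcna2, which encodes a potassium channel, had a peak in all livers. The low counts of this list fell in WT 2 and WT 3, the livers with muscle peaks, and the part of muscle in this was not tested.

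Of 26 genes expressed by most macrophages, 16 had a peak and 7 had one in every liver. Fcgr3, an activating Fc receptor, had a fold enrichment of 117, 96.5 and 135 in HFD mice and 162, 268 and 73.6 in WT mice, with both ends of this range in WT. Mrc1, the mannose receptor, lay between 14.8 and 25.4, Ctss, which encodes cathepsin S, between 9.11 and 16.7, and Tlr4, the receptor for lipopolysaccharide, between 7.56 and 15.3.

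Of 19 genes of monocytes and of macrophages recruited to fatty liver, 7 had a peak and 0 had one in every liver. The number per liver was 3, 4 and 5 in HFD mice and 2, 4 and 1 in WT mice. Cx3cr1, the fractalkine receptor, had peaks in HFD 2 (5.38) and HFD 3 (5.66) only. Of all regions, 3.96% had a peak in at least 2 HFD livers and in no WT liver. The share of all genes with this pattern is not given here. Clec7a, the beta-glucan receptor dectin-1, had a peak in all but WT 3, at 21.3, 14.6 and 19.7 in HFD mice and 13.4 and 11.6 in WT 1 and WT 2. Spp1, which encodes osteopontin, had peaks in HFD 3, WT 1 and WT 2, and Lpl, the lipoprotein lipase, in all but WT 1.

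**Figure D5:**
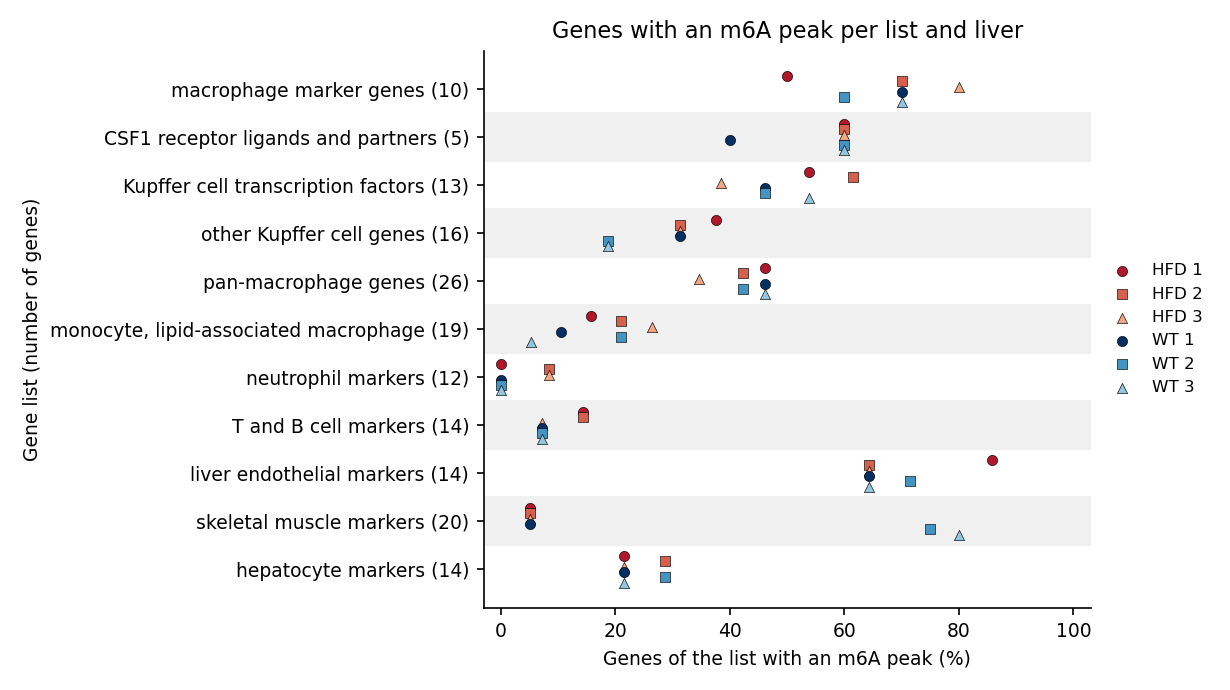
Percent of the genes of each list with an m6A peak in each liver (red symbols HFD, blue symbols WT), with the number of genes in brackets. The macrophage marker genes range from 50% to 80%, and muscle markers reach 75% and 80% in WT 2 and WT 3 only.

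Lists of other cell types were counted beside the markers, and these lists too were chosen with earlier results known. Endothelial markers had a peak in 9 to 12 of 14 genes per liver, and the macrophage markers in 5 to 8 of 10. Of 14 T and B cell markers, 1 or 2 had a peak in a liver, and of 12 neutrophil markers at most 1. Of 14 hepatocyte markers, 3 or 4 had a peak in a liver, and of 16 other Kupffer cell genes, 3 to 6.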

How the data were processed

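m6A immunoprecipitates of 3 HFD and 3 WT livers were analysed from 1 deposited peak list each. Libraries were paired-end reads of 150 bases. Per the submitters' processing notes, peaks were called with MACS2 2.1.0, and Bowtie 1.1.2, Trimmomatic 0.33 and bcl2fastq 2.17 were also used. The notes name a human build, but 99.5% of 67268 peaks with a RefSeq gene ID overlapped that gene in the mouse build GRCm38. The fold enrichment (a ratio of immunoprecipitate to input), the p score (minus 10 times log10 of p) and the false discovery rate (taken to be a percent, as its values run from 25 to 100) were made by the authors' peak caller per mouse and deposited without scaling between libraries. The false discovery rate was not used to select peaks. Starts were counted from 1.

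Peaks were merged at an overlap of 1 base. For peak numbers per gene, a two-sided exact permutation test was run for every gene. Log2 fold enrichment (highest peak per region, median-centred) was fitted with limma 3.58.1 in R 4.3.3, adjusted by Benjamini-Hochberg at 0.05, checked on simulated data. Where WT 2 and WT 3 were left out, WT 1 was assumed to vary like the HFD mice. The marker genes and lists were chosen with earlier results of these data known. Named genes were all markers and, per further list, genes with a region in all livers of 1 group and none of the other, and up to 4 with a peak in most livers (ties by the lowest within-list percentile), of which 1 is not reported here. Transcript segments and motifs were planned but not analysed here. Replicates are separate mice, and p-values set the difference between groups against the spread between mice. In limma this spread is partly estimated over all regions fitted. Read depth per library is unknown, so no counting error could be given. Alternatives were stricter peaks, lists of equal length, another overlap, no centring, within-list percentiles, the mean peak, the replicate block and omitted libraries.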

Additional observations from a re-analysis of the deposited data

How the results depend on the processing

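Depth is not given, so the limit of detection of a peak in these lists is unknown. No marker region became specific to 1 group under any alternative (peaks joined at 0.5 of the shorter peak, at or above the median fold enrichment, lists of 10109 peaks, at least 2 livers, or a library left out). The difference in marker genes with a peak was 0 as reported and 0 with the replicate block, and that in marker peaks was -0.333 in both. With stricter peaks it was -0.667 genes and -1.33 peaks, with lists of equal length -0.667 of each, and with regions counted in place of peaks -0.667. Leaving out single libraries gave -0.667 to 0.833 genes and -0.833 to 0.667 peaks. Without WT 2 and WT 3 the difference was -2.33 peaks, which follows from the count of WT 1 alone. For the further macrophage genes the difference of 3 was 2.33 to 4.33 with single libraries left out and -0.333 with stricter peaks, and the cause was not tested.

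Over all regions, 132 were HFD-only and 54 WT-only, against 84 and 27 with stricter peaks, 727 and 504 with at least 2 livers, and 204 to 461 and 111 to 335 with a library left out, which loosens the criterion. With lists of equal length 94 were HFD-only and 91 WT-only, so the excess of HFD-only regions was nearly gone. By limma, 0 regions passed in each direction, 0 to 1 with single libraries left out (1 each way without HFD 3) and 1 each way without WT 2 and WT 3. The third Cd163 region (0.04) turned to -0.083 without HFD 1, -0.028 without WT 1 and -0.036 without WT 3, and the end of Cd163 (0.17) to -0.056 without WT 2 and WT 3. The replicate block changed no call. The deviations of same-numbered samples correlated at -0.044, 0.024 and -0.22, and those of other pairs at -0.18 to 0.21. These values cannot show whether same-numbered samples share more than a number. Adjusted p of the 6 marker regions stayed at or above 0.760 in 11 alternative fits by limma. The omissions of WT 2 with WT 3 and of the Csf1r peak were chosen after the data were seen.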
